A study of Mus musculus with 43 samples.

Results

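The synaptic vesicle glycoprotein 2 family was followed across 4 hypothalamic nuclei of Snord116+/-P mice, which lack the paternal copy of the Snord116 cluster of small nucleolar RNAs. Its members, Sv2a, Sv2b and Sv2c, were the 3 of 10127 genes in the table whose Ensembl identifiers map to these symbols, and all 3 passed the filter on low values in every nucleus. Sv2c was chosen by its higher level in the fasted paraventricular nucleus, so that comparison is given as a description without a test. Sv2a and Sv2b entered as its paralogues.

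RNA sequencing was performed on the arcuate nucleus (ARC), dorsomedial hypothalamus (DMH), paraventricular nucleus (PVN) and ventromedial hypothalamus (VMH). Each was captured by laser from brain sections of adult male mice of the B6(Cg)-Snord116tm1.1Uta/J line. Their background was C57BL/6J, which the sample labels write as C57/BL6. The mice were fed ad libitum or had fasted for 24 hours. The 41 libraries came from 12 mice: the ARC gave 4 fasted and 5 fed, the DMH 5 and 6, the PVN 5 and 5, and the VMH 6 and 5. Every mouse, fed or fasted, carried the deletion from conception in all its cells, and wild-type mice were not analysed here, which keeps every comparison within the deletion genotype. Libraries carry the name of the nucleus and the number of the animal (PVN-86), and libraries with the same number come from the same mouse.

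SV2 proteins are glycoproteins that span the membrane of synaptic vesicles and of the dense-core vesicles that store peptides, with the fold of a sugar transporter. They bind the calcium sensor synaptotagmin and are needed for normal calcium-triggered release of transmitter. SV2A is found at most synapses and is the binding site of the antiepileptic drug levetiracetam, SV2B is typical of many glutamatergic neurons, and SV2C has the most restricted distribution, with high levels in the basal ganglia and parts of the basal forebrain. The 3 proteins also serve as receptors for botulinum neurotoxin A.

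The genes lie on separate chromosomes of the GRCm38 mouse genome. In the GENCODE M21 annotation Sv2a (ENSMUSG00000038486) occupies chr3:96181151-96195521 on the plus strand with 4636 exon bases. Sv2b (ENSMUSG00000053025) occupies chr7:75114894-75309262 on the minus strand with 8381 exon bases, and Sv2c (ENSMUSG00000051111) occupies chr13:95954594-96132577 on the minus strand with 9700 exon bases. Exons of Sv2b share 47 bases with 1500012K07Rik on the opposite strand, which is not in the table, and the exons of the other members overlap no annotated gene. Whether reads were counted by strand is not given in the sources used here.

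The members are similar enough that reads could in principle be given to the wrong paralogue, so their coding sequences were compared. The coding sequence is 2229 bases in Sv2a, 2052 in Sv2b and 2184 in Sv2c. Over the aligned coding bases Sv2a and Sv2b were 69.2% identical, Sv2a and Sv2c 68.1%, and Sv2b and Sv2c 68.2%. The longest run that any pair shared was the 26 bases aaacatgatgaagcctggatgattct of Sv2b and Sv2c, shorter than the 50 bases of a read. The 90 coding bases around that run are shown for the 3 genes because they hold the longest exact run shared by any pair. Capitals mark the 29 positions that are not the same in all 3 genes, and the sequences come from the GENCODE M21 transcripts, read 5′ to 3′ from coding base 1064 in Sv2a, 893 in Sv2b and 1022 in Sv2c.
Sv2a: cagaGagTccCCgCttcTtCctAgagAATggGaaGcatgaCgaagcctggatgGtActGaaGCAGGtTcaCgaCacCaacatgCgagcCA
Sv2b: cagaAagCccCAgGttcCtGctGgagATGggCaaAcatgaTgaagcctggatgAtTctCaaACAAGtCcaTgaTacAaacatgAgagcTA
Sv2c: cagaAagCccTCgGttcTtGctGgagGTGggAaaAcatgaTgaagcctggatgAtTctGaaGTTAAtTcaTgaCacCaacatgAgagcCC

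No 50-base stretch of one member occurred in a transcript of another member. None of the 4632 distinct 50-base stretches of Sv2a and none of the 8371 of Sv2b occurred in any other annotated gene, whereas 29 of the 9597 of Sv2c (0.302%) did.

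Depth was 1.94 to 8.23 M (mega) reads in a library, the median being 4.10 M, and no member was at 0 in any library. Sv2a rested on 528 to 2088 reads, Sv2b on 167 to 1317 and Sv2c on 54 to 1068. Values are CPM, read counts scaled to the total of the library, and tests used limma on log2(CPM + 0.5) with batch as a covariate and an adjusted p under 0.1 as the threshold. Differences on that scale are called log2 differences. Markers of the captured nuclei were highest in the nucleus of their label. Npy was 194.5 CPM or more in every ARC library and 33.4 CPM or less elsewhere. Npvf and Gpr50 summed to at least 199.8 CPM in the DMH and, nearly all of it Gpr50, to 18.9 to 106 CPM in the ARC. Avp and Crh summed to at least 426 CPM in the PVN, and Fezf1 and Nptx2 to at least 215 CPM in the VMH and 38.5 CPM or less elsewhere. Of the 6 neuronal markers listed, only Tubb3 was measured, and it was present at 62.6 CPM or more in every library. In bulk samples such as these, fewer cells of a type and less RNA per cell cannot be told apart.

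Sv2c was chosen for its difference between fasted and fed mice in the PVN, so its place among the members there is not a result. In the fasted PVN its level was 119 CPM in PVN-86, 86.8 in PVN-100, 92.6 in PVN-101, 63.0 in PVN-305 and 92.4 in PVN-311. In the fed PVN it was 14.7 CPM in PVN-111, 24.7 in PVN-125, 36.7 in PVN-127, 33.6 in PVN-308 and 20.7 in PVN-313. Every fasted library was above every fed library, and the lowest fasted value was 1.72 times the highest fed value. The group means were 90.9 ± 20.1 CPM (SD, n = 5) and 26.1 ± 9.08 CPM (SD, n = 5). The log2 difference was 1.83 ± 0.24 (SE). It was 2.98 in batch 1, which held 1 fasted and 1 fed PVN library, 1.56 in batch 2 and 1.51 in batch 3. Leaving out 1 library at a time gave 1.54 to 1.98, with the low end reached without PVN-86 or without PVN-111, the only batch 1 libraries. Sv2c was 1 of the 3 members whose fasted and fed PVN libraries did not overlap, where 1.31% of 9529 genes tested did not overlap. Since the rule used this contrast, nothing is read from that count.

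**Figure D1:**
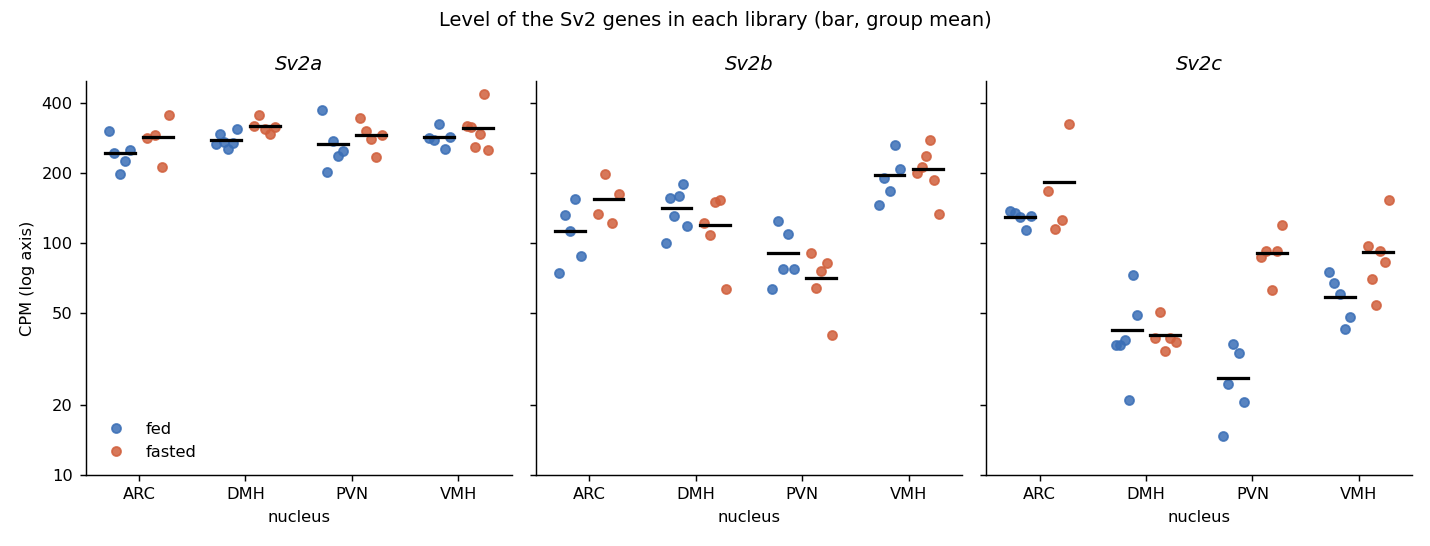
Level of Sv2a, Sv2b and Sv2c in CPM on a log axis in each of the 41 libraries, by nucleus, with fed libraries in blue, fasted in orange and the group mean as a bar. Fasted and fed points are apart for Sv2c in the PVN, at 63.0 to 119 against 14.7 to 36.7 CPM, and overlap in the other 11 panels of gene and nucleus.

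Other measures of the same PVN libraries stood as follows. Avp, which encodes vasopressin, was 891 ± 370 CPM (SD, n = 5) in fasted and 710 ± 328 CPM (SD, n = 5) in fed libraries, a log2 difference of 0.35 ± 0.12 (SE) with an adjusted p of 0.310. Crh, the other of 5 PVN markers measured, was at 14.5 to 126 CPM in fasted and 24.3 to 39.4 CPM in fed libraries, with a log2 difference of -0.01 ± 0.29 (SE; adjusted p = 0.998) that was 1.66, -0.08 and -0.77 by batch. The sum of both, most of it Avp, ranged from 590 to 1600 CPM in fasted and from 426 to 1289 CPM in fed libraries. The VMH markers Fezf1 and Nptx2, 2 of 3 measured, summed to 4.24 to 29.1 CPM in the fasted and 3.72 to 11.2 CPM in the fed PVN, beside 215 to 323 CPM in the VMH. Of these Fezf1 was at 12.2 CPM in fasted and 5.27 CPM in fed libraries, a log2 difference of 1.00 ± 0.45 (SE, adjusted p = 0.485), and above 0 in each batch at 2.06, 1.10 and 0.37. The part of the PVN and VMH markers in the Sv2c result was not tested. The DMH markers Npvf and Gpr50 summed to 6.61 CPM or less in every PVN library. Npy, the ARC marker measured, ranged from 1.82 to 9.93 CPM in the fasted PVN and from 1.63 to 2.85 CPM in the fed PVN, near 0 beside its ARC levels. The summed markers of astrocytes (2 of 6 measured), oligodendrocytes (5 of 6), microglia (5 of 6), endothelium (3 of 4) and ependyma (1 of 3) overlapped between fasted and fed PVN, and none of these genes passed the test there. For oligodendrocytes the sums were 349.8 to 569 CPM in fasted and 383 to 620 CPM in fed libraries, and for endothelium 136 to 196 and 145 to 202 CPM. Within these lists Mag, of oligodendrocytes, had a log2 difference of 0.95 ± 0.45 (SE, adjusted p = 0.501), above 0 in each batch. Slco1c1, of endothelium, was at -0.49 ± 0.22 (SE, adjusted p = 0.495), below 0 in each batch. So was Cx3cr1, of microglia, at -0.49 ± 0.26 (SE, adjusted p = 0.556). Tubb3, the neuronal marker measured, was at 0.12 ± 0.11 (SE, adjusted p = 0.783), above 0 in each batch. Their part in the Sv2c result was not tested.

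In the other nuclei the fasting contrast of Sv2c was tested and did not pass. In the VMH the 6 fasted libraries had a lowest value of 54.1 CPM, a median of 87.9 and a highest value of 153, and fed libraries were at 74.7 CPM in VMH-111, 67.5 in VMH-125, 60.2 in VMH-127, 42.8 in VMH-308 and 48.0 in VMH-313. The groups overlapped, the log2 difference was 0.52 ± 0.19 (SE; 95% interval 0.13 to 0.91), and the adjusted p was 0.610. It was above 0 in each of the 3 batches, at 0.59, 0.36 and 0.64. In the same libraries Tubb3, the neuronal marker measured, was at 142 CPM in fasted and 162 CPM in fed mice, a log2 difference of -0.24 ± 0.11 (SE, adjusted p = 0.712) that was below 0 in each batch, and its part in the Sv2c values was not tested.

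In the ARC the fasted libraries held 325 CPM in ARC-86, 167 in ARC-100, 115 in ARC-305 and 126 in ARC-311, while the 5 fed libraries lay between 114 and 137 CPM. One fasted library stood well above the rest and 2 lay within the fed range. The log2 difference was 0.38 ± 0.17 (SE; 95% interval 0.02 to 0.73) with an adjusted p of 0.578. It was 1.24 in batch 1, 0.34 in batch 2 and -0.03 in batch 3. It was 0.12 without ARC-86, and also without ARC-111, since each leaves batch 1 with a single ARC library. In the ARC the summed endothelial markers, 3 of 4 measured, were 40.6 to 50.5 CPM in fasted and 57.6 to 69.8 CPM in fed libraries with no overlap, although none of the 3 passed the test. Flt1 was at -0.53 ± 0.21 and Slco1c1 at -0.31 ± 0.46, while Cldn5 went the other way at 0.30 ± 0.50 (SE). Tubb3, the neuronal marker measured, was at 82.1 CPM in fasted and 132 CPM in fed ARC libraries, a log2 difference of -0.59 ± 0.16 (SE; adjusted p = 0.266), and lay below 0 in each batch. The part of these markers in the ARC values was not tested.

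In the DMH Sv2c ranged from 34.1 to 50.3 CPM in the 5 fasted and from 21.0 to 72.6 CPM, with a median of 37.3, in the 6 fed libraries. The fed values enclosed the fasted ones, and the log2 difference was 0.01 ± 0.26 (SE; 95% interval -0.53 to 0.55) with an adjusted p of 0.996. Its sign was not settled: it was -0.61 with log2 depth as a covariate, and -0.22 to 0.28 with 1 library left out.

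**Figure D2:**
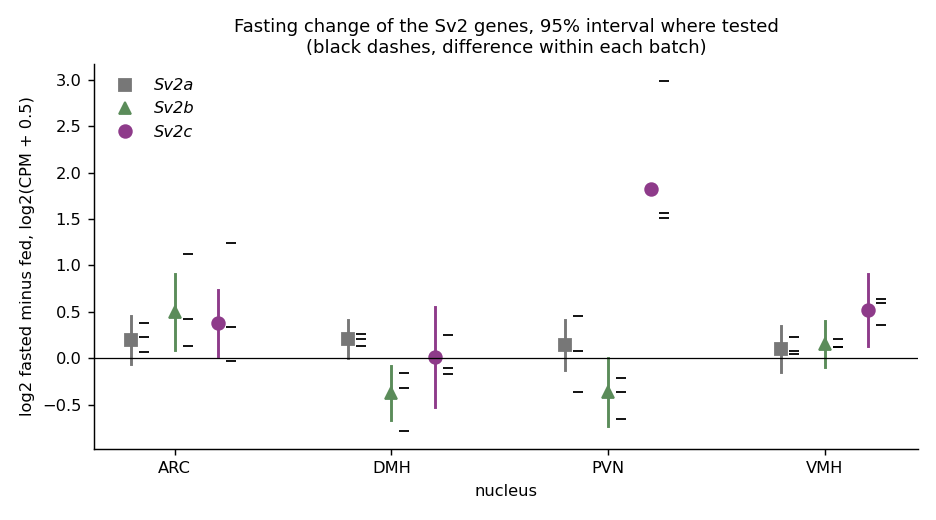
Log2 difference between fasted and fed libraries on log2(CPM + 0.5) for each member and nucleus, with the 95% interval as a vertical line for tested contrasts and the differences within batches 1, 2 and 3 as black dashes. Sv2c in the PVN, the contrast that chose it and so drawn with no interval, is at 1.83, and the other 11 values lie between -0.37 and 0.52.

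Sv2a, the broadly expressed member, had the narrowest range of the 3 genes over the libraries. In the DMH its level was 316 CPM in DMH-86, 319.9 in DMH-100, 357 in DMH-101, 310.1 in DMH-305 and 295 in DMH-311, all fasted. In fed DMH it was 309.5 CPM in DMH-92, 268 in DMH-111, 294 in DMH-125, 272 in DMH-127, 254 in DMH-308 and 269.7 in DMH-313. Most fasted values were above most fed values, but the ranges overlapped. The log2 difference was 0.21 ± 0.10 (SE; 95% interval 0.00 to 0.41) with an adjusted p of 0.752. In the ARC Sv2a was 287 ± 59.6 CPM (SD, n = 4) in fasted and 245 ± 39.6 CPM (SD, n = 5) in fed libraries, and in the PVN 291 ± 40.0 and 268 ± 65.5 CPM (SD, n = 5 each). In the VMH it was 314 ± 66.9 CPM (SD, n = 6) in fasted and 286 ± 25.6 CPM (SD, n = 5) in fed libraries. The log2 differences there were 0.20 ± 0.12, 0.14 ± 0.13 and 0.10 ± 0.12 (SE), with adjusted p values of 0.694, 0.780 and 0.936. The fasted mean was thus nominally above the fed mean in each nucleus without passing the test in any. With 1 library left out the PVN value ranged from 0.02, without PVN-125, to 0.27, and the ARC value from 0.12 to 0.31.

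Sv2b had fasting contrasts of opposite sign in different nuclei, and none passed the test. In the ARC it was 162 CPM in ARC-86, 134 in ARC-100, 199 in ARC-305 and 122 in ARC-311, which were fasted. It was 74.3 CPM in ARC-111, 132 in ARC-125, 112 in ARC-127, 155 in ARC-308 and 87.7 in ARC-313, which were fed. Fasted libraries tended to lie higher but overlapped with fed ones, the log2 difference being 0.49 ± 0.20 (SE; adjusted p = 0.551). It was 0.31 without ARC-86 and also without ARC-111.

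In the DMH Sv2b was 63.0 CPM in DMH-86, 122 in DMH-100, 108 in DMH-101, 151 in DMH-305 and 154 in DMH-311 (fasted). In fed libraries it was 119 CPM in DMH-92, 100.2 in DMH-111, 157 in DMH-125, 130.3 in DMH-127, 159.98 in DMH-308 and 180.2 in DMH-313. Here the fasted values tended to lie lower, with a log2 difference of -0.37 ± 0.14 (SE, adjusted p = 0.695). It was -0.24 without DMH-86 and -0.63 with log2 depth as a covariate. In the same libraries the summed endothelial markers, 3 of 4 measured, were 51.0 to 91.1 CPM in fasted and 83.6 to 127.3 CPM in fed DMH. Of these Flt1 had a log2 difference of -0.68 ± 0.21 (SE, adjusted p = 0.679) and was below 0 in each batch. Slco1c1 was at -0.44 ± 0.32 (SE, adjusted p = 0.867). Cldn5 went the other way, at 0.53 ± 0.52 (SE, adjusted p = 0.895), above 0 in each batch. Among oligodendrocyte markers Mobp was at 0.44 ± 0.19 (SE, adjusted p = 0.741), above 0 in each batch. Mog, of the same list, was at -0.71 ± 0.41 (SE, adjusted p = 0.808), below 0 in each batch. The PVN marker Crh was at 3.76 CPM in fasted and 0.904 CPM in fed DMH, a log2 difference of 1.86 ± 0.62 (SE, adjusted p = 0.695) that was above 0 in each batch. The part of these markers in the DMH values was not tested. In the PVN it was 40.1 CPM in PVN-86, 90.5 in PVN-100, 63.9 in PVN-101, 76.0 in PVN-305 and 82.1 in PVN-311 (fasted). The fed PVN values were 63.6 CPM in PVN-111, 124 in PVN-125, 77.1 in PVN-127, 109 in PVN-308 and 77.6 in PVN-313. The ranges again overlapped, with a log2 difference of -0.36 ± 0.17 (SE; adjusted p = 0.506). In the VMH the fasted mean was 208 ± 48.3 CPM (SD, n = 6) and the fed mean 196 ± 45.2 CPM (SD, n = 5), with a log2 difference of 0.15 ± 0.12 (SE; adjusted p = 0.889). Within batches the Sv2b difference was above 0 in all 3 batches in the ARC (1.12, 0.14 and 0.42) and in the VMH (0.12, 0.20 and 0.12). It was below 0 in all 3 batches in the DMH (-0.79, -0.32 and -0.16) and in the PVN (-0.66, -0.36 and -0.22).

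Over the 11 fasting contrasts that could be tested, 0 passed the threshold in limma, and 5 were under an unadjusted p of 0.05 (Sv2a in the DMH, Sv2b in the ARC and DMH, and Sv2c in the ARC and VMH). Of all genes, 8.1% were under that unadjusted p in the ARC, 6.62% in the DMH, 9.97% in the PVN and 6.98% in the VMH. The share of all genes past the adjusted threshold was 0.176% of 9654 in the ARC, 0.0103% of 9751 in the DMH, 0.367% of 9529 in the PVN and 0.0208% of 9594 in the VMH. None of the tested members had fasted and fed libraries without overlap, where 2.13% of genes had none in the ARC, 0.4% in the DMH and 0.5% in the VMH. Whether the fasting contrast differed between nuclei was tested directly for Sv2a and Sv2b with an F-test in a fit over all 41 libraries. The adjusted p was 0.994 for Sv2a and 0.682 for Sv2b, whose F was 5.90. The share of genes past the threshold in that F-test was 0%, or 0 of 10121. At an unadjusted p under 0.05 there were 522, or 5.16%, and Sv2b was among them.

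The members also differed from each other in how their levels were spread over the nuclei. Sv2a was nearly even, at 264 ± 51.1 CPM (SD, n = 9) in the ARC, 280 ± 52.6 (SD, n = 10) in the PVN, 297 ± 30.0 (SD, n = 11) in the DMH and 301 ± 52.1 (SD, n = 11) in the VMH. No neighbours in that order, and none of the 6 pairs of nuclei, differed past the threshold, with adjusted p values from 0.188 to 0.981. Without VMH-86, however, ARC minus VMH was -0.21 and passed it (adjusted p = 0.070). The intervals of the differences bound them: ARC minus DMH was -0.17 on the log2 scale (95% interval -0.35 to 0.01) and ARC minus VMH -0.16 (95% interval -0.34 to 0.01).

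Sv2b was highest in the VMH, at 203 ± 45.0 CPM (SD, n = 11), and lowest in the PVN, at 80.4 ± 23.7 CPM (SD, n = 10). The DMH at 131 ± 33.4 CPM (SD, n = 11) and the ARC at 131 ± 38.1 CPM (SD, n = 9) lay between them and did not differ past the threshold, with a log2 difference of 0.00 ± 0.12 (SE; 95% interval -0.25 to 0.24; adjusted p = 0.985). That value averages feeding states whose mean differences were opposite in sign. Within mice, ARC minus DMH was -0.39 ± 0.38 (SD, n = 5) in fed animals, with the ARC higher in 0 of 5, and 0.39 ± 0.71 (SD, n = 4) in fasted animals, with the ARC higher in 3 of 4. In the fed libraries alone it was -0.42 with an adjusted p of 0.101. PVN minus VMH was -1.39 ± 0.12 (SE; adjusted p = 7.1e-14) and was the pair whose libraries did not overlap, the highest PVN value being 124 CPM and the lowest VMH value 134 CPM. In all 10 mice with both nuclei the VMH was higher. ARC minus PVN was 0.73 ± 0.12 (SE; adjusted p = 9.2e-06) and DMH minus PVN 0.74 ± 0.12 (SE; adjusted p = 4.1e-06), with the PVN lower in 9 of 9 and 10 of 10 mice. ARC minus VMH was -0.65 ± 0.12 (SE; adjusted p = 2.5e-05), with the VMH higher in all but 1 of 9 mice, and DMH minus VMH -0.65 ± 0.11 (SE; adjusted p = 1.6e-05), the latter in 10 of 10 mice. In the fed libraries alone the ARC minus PVN difference was 0.31 with an adjusted p of 0.332 and the DMH minus VMH difference -0.40 with an adjusted p of 0.108, so these 2 calls rest on the fasted libraries as well.

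Over the 41 libraries Sv2c ranged from 14.7 to 325 CPM or 22.1-fold, where Sv2b ranged 6.92-fold and Sv2a 2.22-fold. The lowest Sv2c value, in PVN-111, belongs to the contrast that chose this gene, so the width of its range is a description only. Outside the PVN Sv2c ran from 21.0 CPM in the DMH to 325 CPM in the ARC. It was highest in the ARC, at 153 ± 66.1 CPM (SD, n = 9), then the VMH at 76.6 ± 30.7 CPM (SD, n = 11), and was at 41.1 ± 12.9 CPM (SD, n = 11) in the DMH. The PVN mean of 58.5 ± 37.2 CPM (SD, n = 10) joined 2 separate ranges: the fed PVN, at 26.1 CPM, was below the fed DMH, at 42.2 CPM, and the fasted PVN, at 90.9 CPM, was above the fasted DMH, at 39.9 CPM. ARC minus DMH was 1.91 ± 0.17 (SE; adjusted p = 4.5e-12), and no ARC library was as low as any DMH library. ARC minus VMH was 1.08 ± 0.17 (SE; adjusted p = 2.5e-06), the ARC being higher in 9 of 9 mice. DMH minus VMH was -0.83 ± 0.17 (SE; adjusted p = 0.00013), and -0.53 with an adjusted p of 0.184 in the fed libraries alone.

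The share of all genes that passed these pairwise tests was 18.0% for ARC against DMH, 16.7% for ARC against PVN, 30.3% for ARC against VMH, 18.0% for DMH against PVN, 23.4% for DMH against VMH and 31.3% for PVN against VMH. Libraries did not overlap for 1.3% of genes between ARC and DMH and for 3.99% between PVN and VMH. Sv2b passed in 5 of 6 pairs, Sv2a in 0 of 6, and Sv2c in each of the 3 pairs that leave out the PVN.

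Within mice, the place of the PVN in the order of Sv2c levels differed between fed and fasted animals, which is given as a description because it contains the contrast used for the choice. In the 5 fed mice with both nuclei the PVN was below the VMH in every mouse, by 1.20 ± 0.75 (SD) on the log2 scale. In the 5 fasted mice it was above the VMH in 2 and below in 3, with a mean difference of 0.02 ± 0.30 (SD). Against the DMH, the PVN was lower in 4 of 5 fed mice and higher in 5 of 5 fasted mice, where DMH minus PVN averaged -1.16 ± 0.32 (SD). The ARC stayed above the PVN in all 9 mice with both nuclei, by 2.36 ± 0.60 (SD, n = 5) in fed and 0.92 ± 0.41 (SD, n = 4) in fasted mice.

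**Figure D3:**
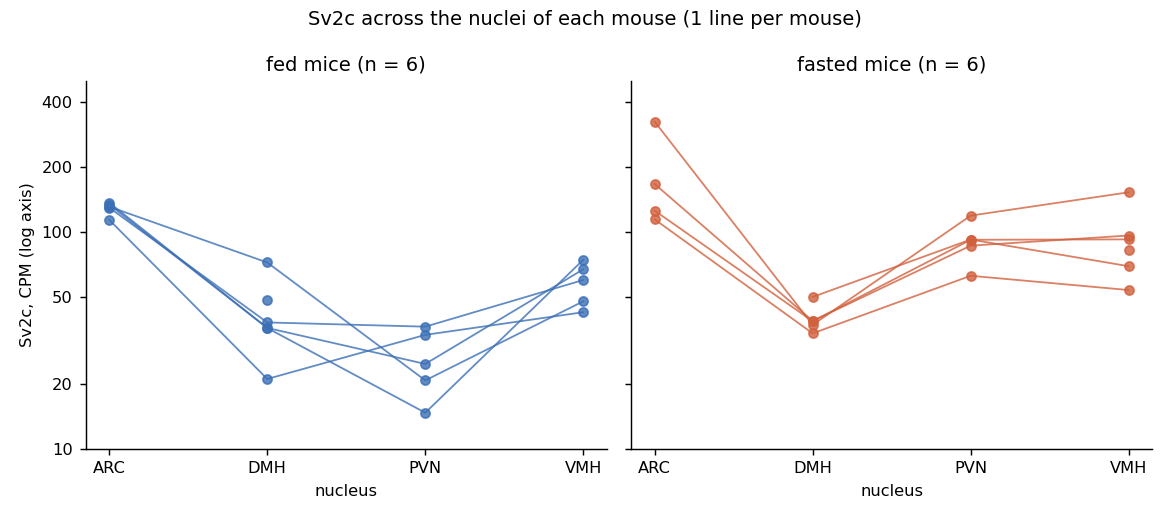
Sv2c level in CPM on a log axis in each nucleus, with 1 line per mouse, fed mice on the left and fasted mice on the right; a point without a line is a mouse with no library from the neighbouring nuclei. In the PVN fed mice lie at 14.7 to 36.7 CPM and fasted mice at 63.0 to 119 CPM, each fasted mouse above its own DMH.

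Mouse 86, the only fasted batch 1 animal in the ARC, DMH and PVN, had the highest Sv2c level of its nucleus in the ARC (325 CPM), the PVN (119 CPM) and the VMH (153 CPM). In its DMH the level was 37.4 CPM, inside the range of the others. The same mouse had the lowest Sv2b level in the DMH, PVN and VMH, at 63.0, 40.1 and 134 CPM.

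Levels of different genes can be compared only per length, so CPM were divided by the kilobases of exon in each gene. On that scale Sv2a was the most abundant member in 41 of 41 libraries, with 61.8 ± 10.3 CPM per kb (SD) against 16.5 ± 6.75 for Sv2b and 8.20 ± 5.84 for Sv2c. Its share of the summed per-kb level of the family was 64.6% ± 4.54 (SD, n = 9) in the ARC, 66.7% ± 4.97 (SD, n = 11) in the VMH, 76.3% ± 4.97 (SD, n = 11) in the DMH and 79.1% ± 5.27 (SD, n = 10) in the PVN. Sv2b came second in all 11 DMH and all 11 VMH libraries. In the PVN it came second in 8 of 10 libraries, and Sv2c was above it in PVN-86 and PVN-101, both fasted. In the ARC Sv2b and Sv2c were at 15.6 ± 4.55 and 15.8 ± 6.82 CPM per kb (SD, n = 9), and Sv2c was above Sv2b in 4 of 9 libraries. The order in the ARC and PVN depends on the length used. Divided instead by the length of the transcript with the longest coding sequence (5524 bases in Sv2b and 9101 in Sv2c), a choice made after seeing the data, the ARC means were 23.7 for Sv2b and 16.8 for Sv2c. Sv2c was then above Sv2b in 2 of 9 ARC libraries, and in the PVN in PVN-86 but not in PVN-101.

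Sv2c made up 11.7% ± 2.84 (SD, n = 5) of the per-kb family sum in the fasted PVN and 3.89% ± 1.46 (SD, n = 5) in the fed PVN. Its share was 18.4% ± 5.64 (SD, n = 4) and 16.8% ± 1.64 (SD, n = 5) in the fasted and fed ARC, 9.52% ± 4.50 (SD, n = 6) and 6.67% ± 1.66 (SD, n = 5) in the VMH, and 4.70% ± 0.53 (SD, n = 5) and 5.29% ± 1.90 (SD, n = 6) in the DMH. The family sum itself was 80.6 ± 9.03 CPM per kb (SD, n = 5) in the fasted and 71.3 ± 11.3 (SD, n = 5) in the fed PVN, so most of the family's transcripts in the PVN came from Sv2a in either state.

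**Figure D4:**
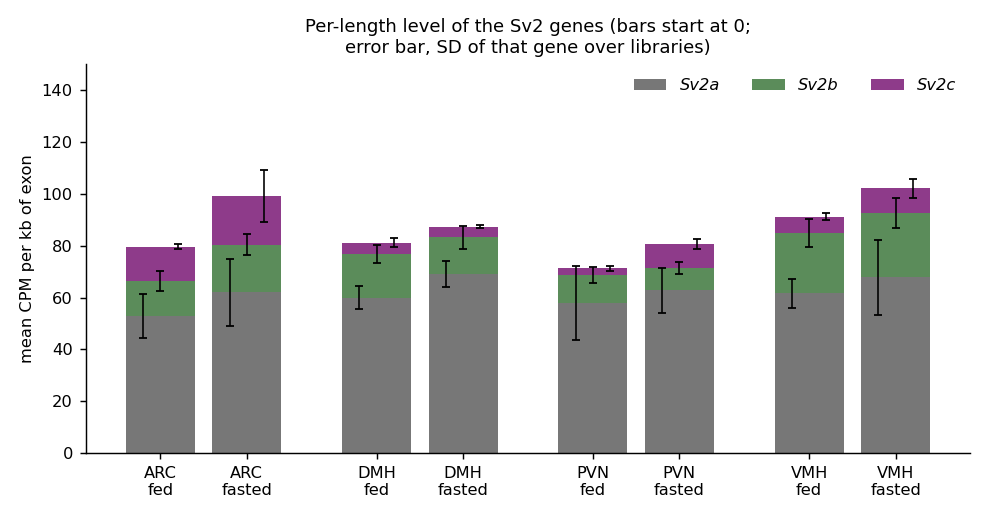
Stacked mean level of Sv2a, Sv2b and Sv2c in CPM per kb of exon in each nucleus and feeding state, with the SD of each gene over libraries as an error bar at the top of its segment. Sv2a forms the largest segment in every group, and the Sv2c segment is thinnest in the fed PVN, at 2.69 CPM per kb.

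The Sv2 genes were set beside the other genes of the synaptic vesicle and its release machinery. Of 94 such genes listed, 44 were in the table and 43 could be tested for fasting in each nucleus. In the PVN 1 of the 43 rose and 0 fell, beside 0.367% of all genes. The gene that rose was Syp, which encodes synaptophysin, an abundant protein of the vesicle membrane. Its level was 1371 ± 151 CPM (SD, n = 5) in fasted and 1027 ± 161 CPM (SD, n = 5) in fed libraries without overlap, a log2 difference of 0.43 ± 0.09 (SE; adjusted p = 0.069). The call was lost without the batch covariate and without any 1 of 9 of the 10 PVN libraries, all but PVN-127. In the ARC, DMH and VMH 0 vesicle genes passed the threshold in limma, while 4, 2 and 5 were under an unadjusted p of 0.05, as were 7 in the PVN, beside 8.1%, 6.62%, 6.98% and 9.97% of all genes. The median log2 difference of the list was -0.03 in the ARC, -0.01 in the DMH, 0.04 in the PVN and -0.01 in the VMH, beside 0.02, 0.01, 0.01 and 0.00 over all genes tested.

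The outermost vesicle genes (mean of 5 CPM or more in 1 of the groups) did not pass the test other than Syp. In the PVN the highest differences were those of Syt15, a synaptotagmin, at 0.55 ± 0.65 (SE), and of Syp, and the lowest those of Atp6v1h, a subunit of the proton pump that fills vesicles, at -0.43 ± 0.14, and of Syt10 at -0.38 ± 0.28. In the ARC they were Syngr2, a synaptogyrin, at 1.04 ± 0.51 and Vamp1, a vesicle SNARE, at 0.54 ± 0.26, against Atp6v1h at -0.45 ± 0.16 and Unc13c, a vesicle-priming factor, at -0.39 ± 0.22. In the VMH they were Syngr2 at 1.10 ± 0.50 and Unc13c at 0.73 ± 0.26, against Slc32a1, the vesicular GABA transporter, at -0.40 ± 0.55 and Unc13a at -0.35 ± 0.15. In the DMH they were Syngr2 at 0.59 ± 0.47 and Cplx1, which encodes complexin 1, at 0.41 ± 0.15, against Syt12 at -0.54 ± 0.40 and Bsn, which encodes the active-zone protein bassoon, at -0.27 ± 0.10. Adjusted p values of these 15 contrasts ranged from 0.307 to 0.948.

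**Figure D5:**
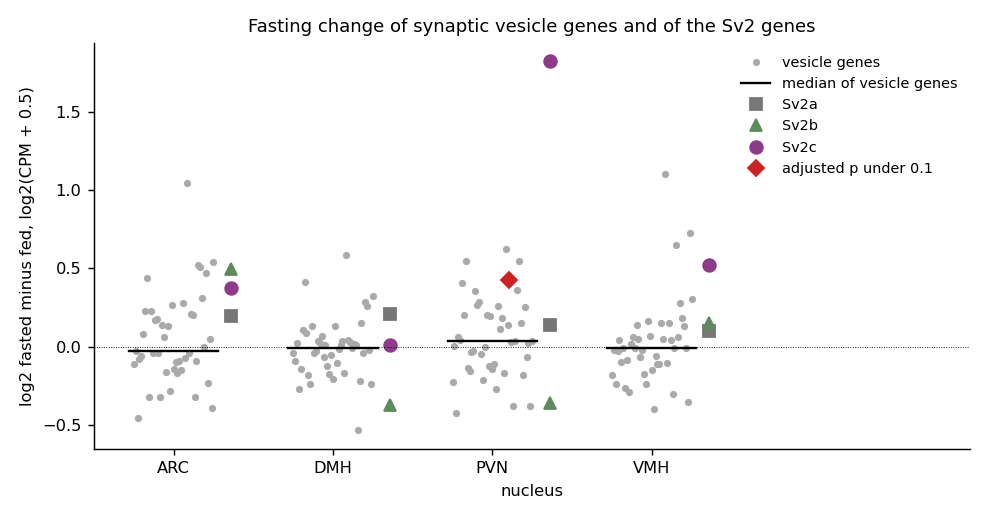
Log2 difference between fasted and fed libraries for the 43 tested synaptic vesicle genes in each nucleus (grey points, black bar at their median, red diamond past the threshold), with Sv2a, Sv2b and Sv2c to the right of each group. Syp in the PVN is the red diamond, at 0.43, and Sv2c in the PVN, at 1.83, was chosen for that difference, so its place beside the vesicle genes is not a result.

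By nucleus, 44 vesicle genes could be tested. Between the ARC and the VMH 7 were higher in the ARC and 23 in the VMH, where 30.3% of all genes passed, and between the ARC and the DMH 1 was higher in the ARC and 19 in the DMH, where 18.0% passed. Between the PVN and the VMH 10 were higher in the PVN and 19 in the VMH (31.3% of all genes). Between the ARC and the PVN 5 were higher in the ARC and 14 in the PVN (16.7%). Between the DMH and the PVN 13 were higher in the DMH and 4 in the PVN (18.0%), and between the DMH and the VMH 10 were higher in the DMH and 14 in the VMH (23.4%). The median log2 difference was -0.22 for ARC minus VMH, -0.23 for ARC minus DMH, -0.17 for PVN minus VMH, -0.08 for ARC minus PVN, 0.13 for DMH minus PVN and 0.01 for DMH minus VMH, beside 0.01, -0.02, 0.00, 0.01, 0.03 and 0.05 over all genes. Sv2b was likewise higher in the VMH than in the ARC and the PVN, whereas Sv2c was higher in the ARC than in the VMH and the DMH.

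The genes whose log2 level was most like that of each member were found by Pearson's r over the 41 libraries, as a description, since these libraries share nuclei, mice and batches. For Sv2a they were Rusc1 (r = 0.74), Tom1l2 (0.69), Pianp (0.68), Gm14703 (0.68) and Vwa5b2 (0.65). For Sv2b they were Ryr3 (0.85), which encodes a ryanodine receptor, Adgrl3 (0.85), which encodes a latrophilin, Gria2 (0.84) and Grik2 (0.83), which encode glutamate receptor subunits, and Edil3 (0.83). Gria2 ran from 507 ± 80.2 CPM (SD, n = 10) in the PVN to 899 ± 133 CPM (SD, n = 11) in the VMH, the same outer nuclei as for Sv2b.

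For Sv2c they were Cited1 (0.74), Npy (0.71), Kcnk2 (0.68), Col23a1 (0.68) and Gpr6 (0.68). Cited1, a transcriptional coregulator, was at 185 ± 74.4 CPM (SD, n = 9) in the ARC, 56.1 ± 23.7 (SD, n = 11) in the VMH, 29.0 ± 19.6 (SD, n = 11) in the DMH and 14.7 ± 10.8 (SD, n = 10) in the PVN. It thus shared the high ARC level of Sv2c but not its fasted PVN level, where Cited1 was 18.0 ± 15.1 CPM (SD, n = 5). Between the members themselves r was 0.01 for Sv2a and Sv2b, -0.02 for Sv2a and Sv2c, and 0.09 for Sv2b and Sv2c.

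Over the 10 PVN libraries alone the genes most like Sv2c included Ccdc120 (r = 0.94), 5330429C05Rik (0.92), Phyhd1 (0.91) and Ppox (0.91), which encodes an enzyme of haem synthesis. These libraries hold the contrast that chose Sv2c, so likeness to it means being higher in the fasted PVN. Ccdc120 was at 10.7 ± 2.36 CPM (SD, n = 5) in the fasted and 3.69 ± 0.47 CPM (SD, n = 5) in the fed PVN, and Ppox at 32.5 ± 5.27 and 14.5 ± 3.75 CPM (SD, n = 5 each). Over the same libraries r with Sv2c was 0.11 for Sv2a and -0.39 for Sv2b.

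The RefSeq promoter windows of the members on GRCm38.p6, 300 bases around each annotated start, differed in composition. The window of Sv2c was 71.7% G and C with 32 CpG, that of Sv2a 68.0% with 17 CpG, and that of the first start of Sv2b 51.3% with 10 CpG, beside medians of 52.7% and 7 over 32851 windows. Letters of the cAMP response element (TGACGTCA), a single arm of the glucocorticoid response element (AGAACA) and a FOXO site (GTAAACA) were searched on both strands. They are held by 1.79%, 19.0% and 3.65% of all windows, and no matches overlapped in the members' windows. The Sv2a and Sv2c windows and the first Sv2b window held none of these letters, and of the 3 further Sv2b windows at internal starts 2 held AGAACA.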

How the data were processed

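According to the labels and methods, RNA of the captured nuclei was amplified (Ovation RNA-Seq V2) and sequenced as single-end 50-base reads in 3 capture and library batches. The authors mapped the reads to GRCm38 with TopHat2 2.0.11, used Cufflinks 2.2.1, edgeR and limma, left out outlier libraries, which can lower the spread between replicates, and deposited CPM per Ensembl gene. The read counter and the use of strand are not given in the sources used here. The table held no identifier between ENSMUSG00000000861 and ENSMUSG00000028747 (6725 annotated genes, not analysed here), and 9891 of 10127 genes were paired with a symbol through GENCODE M21. Of 43 columns 41 were matched to a sample, 2 fitted no sample label and stayed out. These columns are named ARC of mice 85 (fasted) and 92 (fed), while the 2 samples not analysed here are labelled PVN of the same mice, and whether a nucleus was misnamed is not settled.

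Depth was read from the low values, of which 97.7% to 98.7% were whole multiples of 1 read within 0.1 read; other values were not, so no test on counts was run. Amplified reads are not independent molecules, and depth limits the precision of low values. Genes at 1 CPM or more in at least the number of libraries of the smaller group were tested on log2(CPM + 0.5), which understates changes of low genes, with limma 3.58.1 in R 4.3.3 (eBayes with trend, 2-sided), fasted against fed with batch as a covariate in each nucleus. The nucleus pairs and the F-test came from 1 fit of 8 group means plus batch to the 41 libraries. Benjamini-Hochberg adjustment was made over all genes tested. The scripts were tested on simulated data. The same mouse number in several nuclei is the same animal, and the consensus correlation within a mouse was -0.0032; fed and fasted mice are different animals. Libraries of a group are separate mice, so the spread is between animals.

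The members and lists were chosen with earlier results of these data known. Named genes were the members, list genes past the threshold, the 2 highest and 2 lowest list genes per nucleus, the 5 genes most like each member, and markers; an item the rule named is not reported here. Alternatives were another pseudocount, no filter, median-of-ratios scaling, no batch, depth as a covariate, the mouse as a block, fed libraries only, and each library left out.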

Additional observations from a re-analysis of the deposited data

Results flagged for a closer look

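Sv2a in the fasted VMH of mouse 85 was 438 CPM, while the other 5 fasted VMH libraries lay between 253 and 321 CPM. Its gap to the nearest of the others was 63.4% of the range of the group, above Dixon's 95% critical value for a group of 6. That critical value is higher for smaller groups. Among 24 groups of gene, nucleus and feeding state examined this was the 1 past the critical value for its own size, where chance alone gives 1.2. Without this library the fasting difference of Sv2a in the VMH was 0.01 on the log2 scale in place of 0.10, and neither passed the test. Mouse 85 belongs to batch 1, and of its libraries only the one from the VMH was used.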

How the results depend on the processing

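Of 218 values recomputed under the alternatives other than leaving out a library, 196 kept their direction and their side of the threshold, or, for counts, stayed within 1.5 times. So did 967 of 1025 values with 1 library left out. The others under the alternatives include Sv2c level differences without a test that kept their direction but changed in size. In fed libraries only, ARC minus PVN was 2.36 in place of 1.64 and PVN minus VMH -1.20 in place of -0.56. The fasting contrast of Sv2c in the PVN ranged from 1.76 to 1.93 over the alternatives. With the mouse as replicate block no call on a member changed: Sv2b PVN minus VMH was -1.39 and Sv2c ARC minus DMH was 1.91. That fit used 1 correlation for all genes, -0.0032. For level differences it was therefore nearly the same fit and could hardly change a call, so nothing is read from it about shared mice. Sv2c in the PVN, which has no test, was 1.83 there.

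Values that reversed were close to 0 before the alternative was applied, or compared the PVN level of Sv2c. The Sv2c contrast in the DMH was -0.61 with log2 depth as a covariate in place of 0.01, so the reversed value itself was not close to 0. Sv2a DMH minus VMH was -0.0030 with median-of-ratios scaling and -0.073 in fed libraries only, and Sv2b ARC minus DMH was 0.015 with that scaling and 0.030 without batch. In fed libraries only, which are fewer samples, Sv2c DMH minus PVN was 0.66, ARC minus PVN 2.36 and PVN minus VMH -1.20, while Sv2b ARC minus PVN was 0.31, Sv2b DMH minus VMH -0.40 and Sv2c DMH minus VMH -0.53, and these last 3 no longer passed the threshold. Vesicle genes past the threshold in the PVN numbered 0 without batch. The cause of these changes was not tested.

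With 1 library left out, the Sv2c contrast in the DMH ranged from -0.22 to 0.28, Sv2b ARC minus DMH from -0.11 to 0.081, Sv2a DMH minus VMH from -0.041 to 0.044, Sv2a ARC minus VMH from -0.21 to -0.11, past the threshold without VMH-86 (adjusted p = 0.070), and the vesicle genes in the PVN from 0 to 1. Genes past the threshold, in the ARC 17, were 5 without the filter, 0 without batch and 5 with the mouse block. In the PVN they were 35, 3 without batch and 55 with depth. In the DMH they were 1, 0 without batch and 0 with depth, and in the VMH 2, 1 without batch, 1 with depth and 4 with the block. Leaving out 1 library gave 3 to 23, 2 to 31, 1 to 2 and 1 to 5 genes in the ARC, PVN, DMH and VMH.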
